A study of Mus musculus with 8 samples.

Results

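Chromatin loops held by HA-tagged REV-ERBα in mouse liver were compared between zeitgeber time (ZT) 10 and ZT22. The loops came from REV-ERBa3HA/3HA mice, which carry a 3HA tag on both alleles of the endogenous receptor and had received no virus, and chromatin was recovered with anti-HA beads. In-situ ChIA-PET religates crosslinked chromatin inside the nucleus, so that a paired-end tag (PET) records a pair of genomic places that lay together at the tagged protein. A loop here is a pair of anchor intervals on the same chromosome that the deposited list joins by at least 3 PETs. A loop was kept when both anchors were 700 bp or wider, the anchor midpoints lay less than 2 Mb apart, and it lay on a nuclear chromosome outside 3.1 to 3.3 Mb of chromosome 11. This kept 45962 of the 98462 loops listed for the knock-in libraries, out of 277517 over the 6 anti-HA libraries of the series. The other 4 were ZT10 livers of REV-ERBaf/fREV-ERBbf/f mice given AAV8-TBG-Cre with AAV8-TBG-3HA-REV-ERBa-WT or AAV8-TBG-3HA-REV-ERBa-delhIDR, 2 libraries each, in which the hepatocyte promoter TBG drives both transgenes. They serve only as a reference under the same rule, and 2 anti-CTCF samples were not analysed here.

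REV-ERBα, the product of Nr1d1, is a nuclear receptor of the circadian clock that represses transcription. It binds the RORE, an AGGTCA core with an A/T-rich flank that it shares with the ROR activators, and the RevDR2, a pair of such cores, and it recruits the corepressor NCoR with the deacetylase HDAC3. In mouse liver the protein is abundant late in the light phase and scarce late in the dark phase, and its targets include clock genes and genes of lipid, bile acid and glucose metabolism.

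Each time had 1 library, so no difference below has a replicate check and no test was made. The intervals given are 95% intervals for counting error alone, and PETs are not necessarily independent molecules. The ZT10 knock-in library also stood apart from every other library. The rule kept 71.3% of its listed loops (95% Wilson interval 71.0 to 71.7%), 11.6% (11.2 to 11.9%) of those at ZT22, and 5.70% and 3.3% in the WT and 1.55% and 0.624% in the delhIDR libraries, all 4 of which were taken at ZT10. Time and library therefore cannot be told apart. In bulk liver, fewer cells holding a loop and fewer PETs per cell cannot be told apart either.

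The promoters of clock and liver genes under ZT10 anchors are shown first, because they carry the letters REV-ERBα is known to bind. The sequences are RefSeq's for GRCm38.p6, from 250 bases before to 50 bases after a listed start, printed 5′ to 3′ on the gene's strand. A gene can have several such starts. For Arntl and Nfil3 the start shown lies inside the gene body used for PET counts (chr7:113178471-113314126 and chr13:52967209-52982878). Capitals mark a match on either strand to TAGGTCA with AAN directly before it (Arntl, Cyp3a11, Apoh) or to TAGGTCA alone (Nfil3). Arntl encodes the clock activator BMAL1, Nfil3 a clock-output repressor, Cyp3a11 a drug-metabolising cytochrome and Apoh a plasma glycoprotein.
Arntl promoter, chr7:113207261-113207560, plus strand: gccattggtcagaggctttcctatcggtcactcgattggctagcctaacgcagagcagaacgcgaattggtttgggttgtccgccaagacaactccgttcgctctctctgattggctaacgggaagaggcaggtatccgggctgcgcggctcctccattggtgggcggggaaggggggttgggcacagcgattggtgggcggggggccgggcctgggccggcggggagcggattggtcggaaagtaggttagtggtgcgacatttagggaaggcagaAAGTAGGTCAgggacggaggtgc
Nfil3 promoter, chr13:52980990-52981289, minus strand: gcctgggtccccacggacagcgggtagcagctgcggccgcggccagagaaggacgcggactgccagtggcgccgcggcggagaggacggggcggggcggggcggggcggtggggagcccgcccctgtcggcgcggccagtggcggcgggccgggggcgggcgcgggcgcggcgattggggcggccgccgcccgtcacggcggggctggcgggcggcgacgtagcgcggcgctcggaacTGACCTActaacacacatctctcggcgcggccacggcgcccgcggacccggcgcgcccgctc
Cyp3a11 promoter, chr5:145879805-145880104, minus strand: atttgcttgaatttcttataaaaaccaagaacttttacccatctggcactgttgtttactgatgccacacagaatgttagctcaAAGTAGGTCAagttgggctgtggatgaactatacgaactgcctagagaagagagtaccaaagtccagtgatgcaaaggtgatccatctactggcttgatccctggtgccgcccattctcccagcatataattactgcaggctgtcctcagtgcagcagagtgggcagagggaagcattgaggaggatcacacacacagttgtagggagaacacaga
Apoh promoter, chr11:108395047-108395346, plus strand: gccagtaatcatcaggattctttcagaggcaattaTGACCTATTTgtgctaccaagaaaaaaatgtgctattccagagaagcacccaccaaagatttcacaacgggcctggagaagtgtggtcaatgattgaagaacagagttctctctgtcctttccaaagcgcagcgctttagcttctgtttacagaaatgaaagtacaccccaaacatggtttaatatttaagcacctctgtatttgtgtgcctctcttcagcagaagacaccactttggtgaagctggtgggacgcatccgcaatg

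These promoters were chosen for lying under a ZT10 anchor, as 16.8% of all promoters did, and none of them lay under a ZT22 anchor, as 0.842% of all did. Arntl carried 237 PETs at ZT10, Nfil3 291, Cyp3a11 36 and Apoh 15, and none of the 4 carried a kept loop at ZT22. With loops of any anchor width counted, Arntl had 14 PETs at ZT22, Apoh 4, Nfil3 3 and Cyp3a11 0. The share of promoters with these letters differed between ZT10 anchors and all promoters by less than counting error. TAGGTCA was found in 2.46% (2.0 to 3.02%) of the 3574 promoters under a ZT10 anchor, in 1.12% of the 179 under a ZT22 anchor (2 promoters), and in 2.32% of all 21262 promoters of the same length. The longer form with AAN before TAGGTCA, a subset of the first, was in 0.252% (0.133 to 0.478%) of the promoters at ZT10 anchors (9 promoters), in 0 of 179 at ZT22 (Wilson upper bound 2.10%), and in 0.155% of all promoters. The RevDR2 letters, GGTCA and AGGTCA with 2 bases of any kind between them, were in 4 promoters in all, 1 of them under a ZT10 anchor. Both strands were searched, and a match is a description of these 300 bases only. Promoters were denser in the ZT10 anchors, with 62.5 promoters per Mb of anchor against 18.1 at ZT22.

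Kept loops were more numerous and much stronger at ZT10. There were 41273 loops with 267377 PETs at ZT10 and 4689 loops with 15060 PETs at ZT22. A kept loop held 6.48 PETs on average at ZT10 and 3.21 at ZT22, and the strongest held 374 and 9 PETs. At ZT22, 83.0% of the loops sat at the listing minimum of 3 PETs, against 42.1% at ZT10. Loops of 10 or more PETs numbered 5317 at ZT10 and 0 at ZT22. The AAV libraries resembled ZT22 in this, with a mean of 3.18 to 3.41 PETs per kept loop. The width limit removed 88.3% of the ZT22 loops and 28.5% of the ZT10 loops. Just below it, with a narrower anchor of 650 to 700 bp, loops held 3.22 PETs on average at ZT10 (2406 loops) and 3.15 at ZT22 (729 loops). Just above it, at 700 to 750 bp, they held 3.28 (2259 loops) and 3.12 (579 loops).

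ZT10 anchors gathered many loop ends, and ZT22 anchors few. Merging overlapping anchors gave 30269 regions at ZT10 and 9250 at ZT22. A ZT10 region held up to 59 loop ends, and 4771 regions (15.8%) held 5 or more. No ZT22 region held more than 3. Of the ZT22 regions, 16.6% (15.9 to 17.4%) overlapped a ZT10 region. Of the ZT22 loops, 325 (6.93%, 6.24 to 7.69%) met a ZT10 loop at both ends, and the ZT10 loops so met averaged 24.5 PETs against 6.33 in the others.

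Loops reached further at ZT10. The median span was 31.1 kb (30.6 to 31.5 kb) at ZT10 and 13.0 kb (12.7 to 13.2 kb) at ZT22, and 12.9 to 19.1 kb in the AAV libraries. Loops under 10 kb held 7.86% of the ZT10 PETs and 27.6% of the ZT22 PETs. Loops of 20 kb and longer held 61.7% (61.6 to 61.9%) and 31.1% (30.4 to 31.9%). For each ZT22 PET there were 5.05 ZT10 PETs under 10 kb, 36.4 at 20 to 50 kb and 41.8 at 50 to 100 kb, and then 28.6 at 100 to 500 kb and 9.20 beyond. The excess at ZT10 was thus greatest at intermediate distances and smaller at both ends. This order rested on the width limit: with no limit on anchor width the median was 35.1 kb at ZT10 and 67.6 kb at ZT22.

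**Figure D1:**
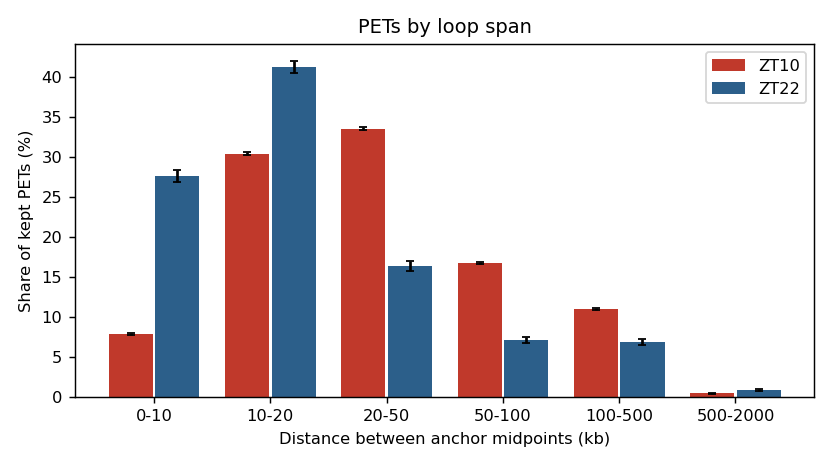
Share of kept PETs (%) by the distance between anchor midpoints (kb) for the ZT10 and the ZT22 knock-in library, with 95% Wilson intervals for counting error as bars. The ZT22 share is the higher below 20 kb (27.6% and 41.3% against 7.86% and 30.4%), and the ZT10 share is the higher from 20 to 500 kb.

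PETs lay at genes more often at ZT10. A loop counted for a gene when an anchor lay in the gene body extended by 5 kb on either side. Such loops held 78.6% (78.4 to 78.7%) of the ZT10 PETs and 63.7% (62.9 to 64.5%) of the ZT22 PETs. PETs with both anchors at the same gene were similar in share, at 41.4% and 43.1%. PETs joining different genes made up 13.5% at ZT10 and 7.58% at ZT22, and PETs with 1 anchor at a gene 23.7% and 13.0%. Anchors within 5 kb of a gene end carried 49.9% of the ZT10 and 27.8% of the ZT22 PETs. Genes of 300 kb or longer carried 7.36% at ZT10 and 14.9% at ZT22.

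The gap between the times lay in the short loops. Under 10 kb, 78.2% of the ZT10 and 56.3% of the ZT22 PETs were at a gene. At 20 to 50 kb the shares were 79.9% and 71.0%. At 50 to 100 kb the ZT22 share, 80.9% (78.4 to 83.1%), was above the ZT10 share of 76.8% (76.4 to 77.1%).

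**Figure D2:**
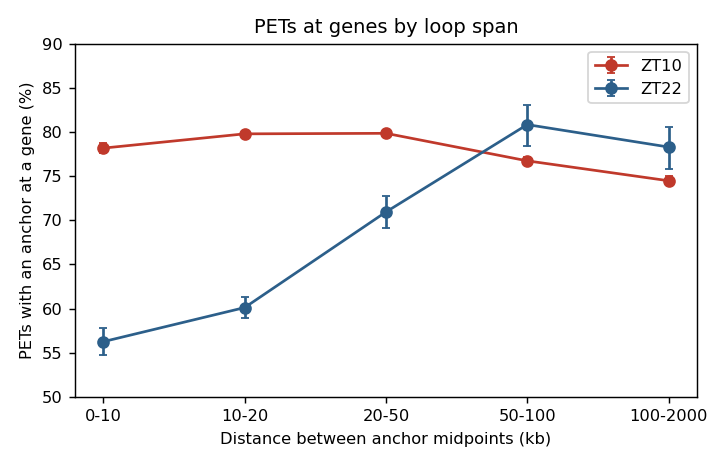
Share of kept PETs with an anchor at a gene (%; the axis starts at 50) by the distance between anchor midpoints (kb), for ZT10 and ZT22, with 95% Wilson intervals for counting error. The ZT10 share stays between 74.5% and 79.9%, while the ZT22 share runs from 56.3% under 10 kb to 80.9% at 50 to 100 kb.

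Of 21775 protein-coding genes, 7529 (34.6%) carried kept PETs at ZT10 and 2890 (13.3%) at ZT22. Both times had kept PETs at 1749 genes, ZT10 alone at 5780 and ZT22 alone at 1141. This contrast rested on the width limit: with loops of any anchor width, 10009 genes (46.0%) carried PETs at ZT10 and 10172 (46.7%) at ZT22. A gene without a kept loop may still have loops with a narrow anchor there, or unlisted loops of up to 2 PETs, so a ratio against 0 serves only to order such genes and is not a fold. ZT10 counts reached at least 100 PETs in 800 genes and at least 500 in 36. At ZT22 the highest gene had 34 PETs and 113 genes had 10 or more.

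The gene with most PETs at ZT10 was Fgg, the fibrinogen gamma chain gene, at chr3:83007724-83015056 (GRCm38.p6). It carried 1194 PETs in 25 loops at ZT10 and 7 PETs in 2 loops at ZT22. Its neighbour Fga, the alpha chain gene, had 1019 and 0, and Fgb, the beta chain gene, 918 and 7. The strongest loop of the ZT10 library, with 374 PETs, joined chr3:83002786-83013723 to chr3:83018753-83031056 across 16.7 kb and touched Fga and Fgg. The loops of 299 and 258 PETs had an anchor in the same cluster, so its genes share PETs. Outside it, loops of 312 PETs at Rnf125, a ubiquitin ligase gene, and of 289 PETs across 50.5 kb at Slc34a2, a phosphate transporter gene, were the strongest. At ZT22 the strongest loop held 9 PETs across 21.6 kb at Plscr1, a phospholipid scramblase gene, the next held 8 at Tcim, and loops of 7 included those at Mstn, Serp2 and the angiopoietin gene Angpt1.

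Signalling, transport and coregulator genes followed. Zmiz1, a transcriptional coregulator gene, had 1158 PETs in 172 loops at ZT10 and 3 PETs in 1 loop at ZT22. Vps13d, a lipid transfer protein gene, had 1040 and 20. Dapk1, a death-associated kinase gene, had 866 and 3. The strongest single loop held 40 PETs at Zmiz1, 60 at Vps13d and 72 at Dapk1, against 374 at Fgg. Ugt1a10, a glucuronosyltransferase gene that shares its 3′ exons with the rest of the Ugt1a cluster, had 772 and 13. Arhgap26, a GTPase-activating protein gene, had 759 and 9, and Itpr1, the gene of an endoplasmic reticulum calcium channel, 752 and 9. The adrenergic receptor gene Adra1b had 678 and 12, the NCoR complex gene Tbl1xr1 623 and 10, and Ddah1, a dimethylarginine hydrolase gene, 605 and 9. Per 100 kb of gene and flanks, ZT10 levels ran from 96.7 PETs at Arhgap26 to 529 at Zmiz1 and 6889 at Fgg.

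Genes with many ZT10 PETs and no kept loop at ZT22 included Mical3, an actin-oxidising enzyme gene, with 598 PETs. Daam1, a formin gene, had 590, the prolactin receptor gene Prlr 555 and Rnf125 549. Dlc1, another GTPase-activating protein gene, had 490, and Dusp6, an ERK phosphatase gene, 459. Abhd17c, a depalmitoylase gene, had 436, the urate oxidase gene Uox 419 and the predicted gene Gm33049 407. With loops of any width, ZT22 counts were 28 PETs at Dlc1, 22 at Daam1, 19 at Prlr, 13 at Mical3, 11 at Rnf125, 6 at Abhd17c and at Uox, 3 at Dusp6 and 0 at Fga. None of the 4 AAV libraries had a kept loop at Fgg or Fga either, although all were taken at ZT10. Those libraries kept only 888 to 6321 PETs each.

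The genes with most PETs at ZT22 were mostly long. Macrod2, a mono-ADP-ribosylhydrolase gene of 1998 kb, led with 34 PETs in 11 loops at ZT22, and it had 9 PETs in 2 loops at ZT10. Mroh2a, beside the Ugt1a cluster, had 27 PETs at ZT22 and 592 at ZT10. The phosphodiesterase gene Pde4d had 25 and 257, the receptor phosphatase gene Ptprd 24 and 142, and Zbtb20, a liver transcriptional repressor gene, 22 and 99. Adgrv1, an adhesion receptor gene, had 22 and 361, and Nav2 had 21 and 430. Pld5 and Mgat4c had 19 and 17 PETs at ZT22 and no kept loop at ZT10. Thus most of the ZT22 leaders also carried more PETs at ZT10 than at ZT22. The median length of the 100 leading genes was 302 kb at ZT22 and 86.5 kb at ZT10, against 17.2 kb for all genes, and 20 genes were in both sets.

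**Figure D3:**
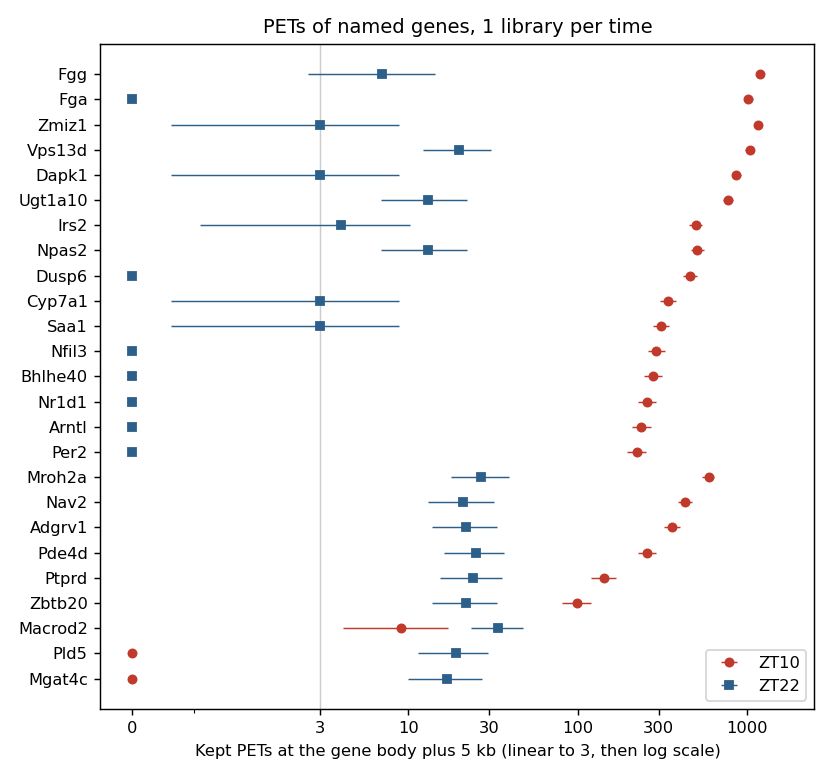
Kept PETs at 25 genes (gene body plus 5 kb) in the ZT10 and the ZT22 library, on an axis that is linear to 3 PETs and logarithmic beyond. Bars are exact 95% Poisson intervals for counting error, drawn for counts above 0, and a point at 0 means that no loop was kept. Fgg stands at 1194 and 7 PETs, and Macrod2 at 9 and 34.

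Shares of kept PETs were compared for the 2354 genes whose summed count over ZT10 and ZT22 reached 30 PETs. Because ZT10 holds most PETs, a gene passes this minimum almost only through ZT10. The share was at least 2-fold higher at ZT10 in 1714 genes (72.8%) and at least 2-fold higher at ZT22 in 161 (6.84%). Of the 1714, 1494 had no kept loop at ZT22 and pass by a pseudocount of 0.5 PETs, and 862 of these (57.7%) had a ZT22 loop with a narrower anchor. The median log2 ratio was 2.22 over all 2354 genes and 0.12 over the 860 with a kept loop at ZT22. The split moved with the scale: it was 2321 against 1 when all listed nuclear PETs set the scale, and 535 against 676 when the median gene did. With a pseudocount of 3 PETs it was 503 against 308. With no minimum on a gene's PETs it turned, to 2315 against 3430, and with loops of 5 or more PETs alone it turned to 115 against 720. Among genes with kept loops at both times, the log2 ratio was 3.17 (2.22 to 4.58) at Fgg, 1.52 (0.92 to 2.27) at Vps13d and 1.09 (0.35 to 2.06) at Npas2. Toward ZT22 it was -6.01 (-7.31 to -4.98) at Macrod2, -3.18 at the kinase gene Map3k2 (24 PETs at ZT10 and 12 at ZT22), -3.12 at the GTPase-activating protein gene Arhgap21 (21 and 10), -2.93 at the nuclease gene Snd1 (31 and 13) and -2.81 at the myostatin gene Mstn (26 and 10). Abi3bp, the integrin gene Itga1, the protease gene Pappa, the kinase gene Dyrk1a and the phosphatase subunit gene Ppp2r3a followed, with 7 to 10 PETs at ZT22, 23 to 27 at ZT10 and log2 ratios from -2.93 to -2.44. Of the 161 genes past 2-fold toward ZT22, 63 rested on a single ZT22 loop, and 65 had an interval that excluded equal shares. With all listed PETs as the scale, Mstn went to 0.064.

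Genes of 300 kb or longer carried PETs more often at ZT22. Of 556 such genes, 284 had PETs at ZT10 and 367 at ZT22, whereas the shorter genes had PETs more often at ZT10 (7245 genes) than at ZT22 (2523 genes).

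Core clock genes looped widely at ZT10. Of 19 members, 16 (84.2%) carried PETs at ZT10, beside 34.6% of all genes, and 3 (15.8%) at ZT22, near the 13.3% of all genes. Npas2, a paralogue of CLOCK and a known REV-ERBα target, had 509 PETs in 42 loops at ZT10 and 13 PETs in 4 loops at ZT22. Its loops were long, with a median span of 132 kb at ZT10. Npas2 had 17 and 10 PETs in the WT and 0 and 3 in the delhIDR libraries. These raw counts are not comparable, since the WT libraries kept 5634 and 6321 PETs in all and the delhIDR libraries 2536 and 888. Rora, the gene of an activator that competes for the same sites, had 388 and 3, and Hlf, a PAR bZIP output factor gene, 302 and 3. Among the repressors, Nfil3 had 291 PETs at ZT10, Bhlhe40 278, Nr1d1 itself 256, Per2 223, Ciart 84, Cry1 82 and Cry2 61. None of these 7 had a kept loop at ZT22, nor had the activator gene Arntl with 237. With loops of any width, the ZT22 counts were 23 PETs at Npas2, 33 at Rora, 15 at Hlf, 10 at Bhlhe40, 8 at Per2, 3 at Nr1d1 and 0 at Cry1 and Cry2, beside 558, 422, 321, 300, 229, 265, 91 and 70 at ZT10. In kept loops, Per1 had 20 PETs at ZT10, Tef 17, Bhlhe41 10 and Dbp 3, all with no kept loop at ZT22. Clock, Nr1d2 and Per3 had no kept loop at either time. Counted at any width, Per1 had 23 PETs at ZT10 and 3 at ZT22, Clock 3 and 5, and Nr1d2 3 and 7. Per 100 kb, Bhlhe40 (1706 kept PETs) and Nr1d1 (1467 kept PETs) stood above Npas2 (284 kept PETs) at ZT10.

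Of 15 corepressor genes, 14 carried PETs at ZT10 (93.3%, beside 34.6% of all genes) and 3 at ZT22 (20.0%, beside 13.3%). Besides Tbl1xr1, the leading members were Zbtb16 (382 PETs at ZT10 and 3 at ZT22), Tle3 (351 and 0), Bcl6 (289 and 0) and Irf2bp2 (281 and 0). The genes of REV-ERBα's own partners, Ncor1 and Hdac3, had only 7 and 8 PETs at ZT10, Gps2 and Hdac7 had 3 each and Hdac2 had none.

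Metabolic genes of the hepatocyte carried PETs at ZT10 in nearly every member, beside 34.6% of all genes. At ZT22 the shares were smaller but, beside 13.3% of all genes, stood at 31.6% in glucose metabolism, 35.0% in fatty acid oxidation, 23.5% in amino acid metabolism, 19.0% in the bile acid list, 17.9% in lipid synthesis and 5.0% in the xenobiotic list. These lists hold genes known to be active in liver. In glucose metabolism, 18 of 19 genes had PETs at ZT10 and 6 at ZT22. The insulin receptor substrates Irs2 (498 and 4) and Irs1 (369 and 3) and the glycogen targeting subunit Ppp1r3b (421 and 3) led, and Igfbp1 had 234 and 0. Ppargc1a, a coactivator gene, had 89 PETs at ZT10 and 9 at ZT22. Its log2 ratio was -0.91, with an interval (-1.83 to 0.33) that included equal shares. In lipid synthesis 27 of 28 genes had PETs at ZT10 and 5 at ZT22, led by the elongase genes Elovl5 (362 and 0) and Elovl6 (263 and 0) and the SREBP anchor gene Insig2 (263 and 4).

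In bile acid and cholesterol metabolism the counts were 20 and 4 of 21. Cyp7a1, whose enzyme starts and limits the making of bile acids from cholesterol, had 343 PETs at ZT10 and 3 at ZT22, and the bile acid receptor gene Nr1h4 had 311 and 3. Cyp8b1 had 168 and 0. In fatty acid oxidation the counts were 20 and 7 of 20, with Ppara at 262 and 3 and Acadm at 247 and 0. All 20 xenobiotic genes had PETs at ZT10 and 1 at ZT22, namely Ugt1a1 with 749 and 13. Urea cycle and amino acid genes stood at 16 and 4 of 17, led by the transporter gene Slc7a2 (149 and 3).

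Liver transcription factors held 14 ZT22 loops, 7 of them at Zbtb20. All 20 had PETs at ZT10, beside 34.6% of all genes, and 8 (40.0%) at ZT22, beside 13.3%. Nr5a2 had 456 and 4, Hnf4a 254 and 0, Foxa2 251 and 0, and Cebpa 209 and 3. Of the 18 members compared, 12 were past 2-fold toward ZT10 and 2 toward ZT22, beside 72.8% and 6.84% of all genes compared. Among the 18, 10 had no kept loop at ZT22 and pass toward ZT10 by the pseudocount. The 2 toward ZT22 were Zbtb20 (log2 ratio -2.01, -2.66 to -1.24) and Tcf7l2 (27 and 3 PETs, -1.18). The Tcf7l2 value rested on 1 ZT22 loop, and its interval (-2.68 to 1.38) included equal shares.

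Secreted hepatocyte proteins stood at 23 and 6 of 25 (92.0% and 24.0%), with Apoa1 at 243 and 3 and Alb at 54 and 0. Over all genes the shares were 34.6% and 13.3%. Acute-phase genes stood at 19 and 7 of 20, with Saa1 at 311 and 3 and Saa3 at 210 and 6. Immediate-early and feedback genes stood at 20 and 5 of 20, led by Dusp6 and by Tsc22d3, the glucocorticoid-induced leucine zipper gene (188 and 0).

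**Figure D4:**
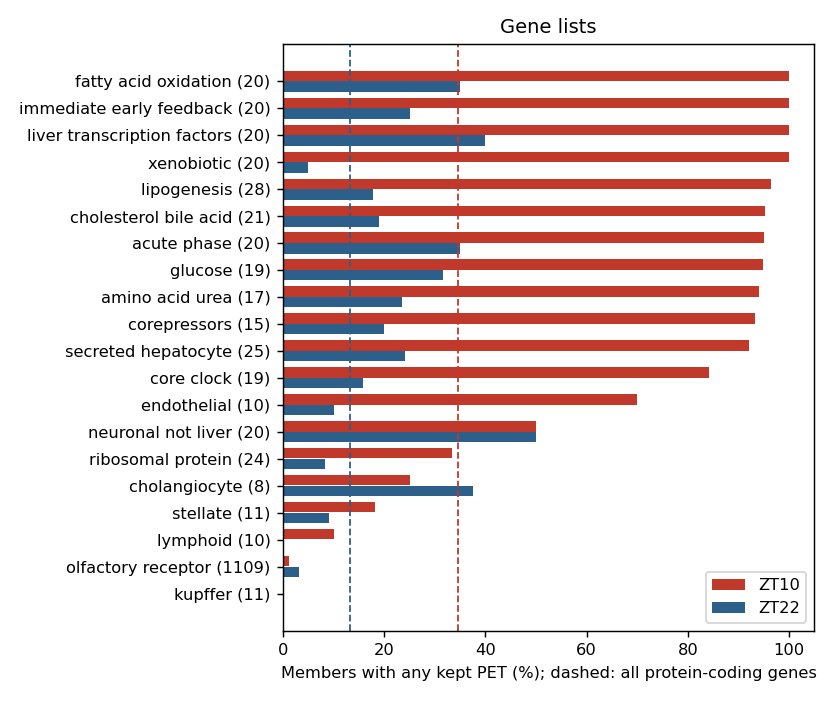
Share of each gene list's members with any kept PET (%) at ZT10 and ZT22, with the number of members in brackets and dashed lines at the values for all protein-coding genes (34.6% and 13.3%). The 12 lists of clock, metabolic, secreted, regulatory and early response genes lie at 84.2% or more at ZT10, and the Kupffer list is at 0 at both times.

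Markers of other liver cells held few PETs, though 70.0% of the endothelial genes carried some at ZT10, beside 34.6% of all genes, and 37.5% of the cholangiocyte genes at ZT22, beside 13.3%. None of 11 Kupffer cell genes carried kept PETs at either time, though at any width Csf1r had 4 PETs and Marco and Vsig4 3 each at ZT22. Endothelial genes stood at 7 and 1 of 10 (103 and 3 PETs), stellate genes at 2 and 1 of 11 (12 and 3 PETs), cholangiocyte genes at 2 and 3 of 8 (87 and 11 PETs), and lymphoid genes at 1 and 0 of 10 (17 and 0 PETs). Defining markers such as Cdh5, Lrat, Epcam, Krt19 and Ptprc had no kept PETs at either time. Counted at any width, Lrat had 9 PETs, Epcam 5 and Cdh5 3 at ZT22, and Ptprc had 8 at ZT10.

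Genes not typical of liver took a larger share of PETs at ZT22. The 20 neuronal genes held 7.44 of every 10000 PETs at ZT10 and 57.8 at ZT22, with PETs at 10 members at each time. Ptprd led at both times, with 142 of 199 PETs at ZT10 and 24 of 87 at ZT22, where Dlg2 and Nrxn3 had 12 each. The 1109 olfactory receptor genes held 8.0 of every 10000 PETs at ZT10 and 61.1 at ZT22. These lay in 13 (1.17%) and 34 (3.07%) members, shares below those of all genes. A ZT22 loop of 7 PETs across 120 kb had an anchor at the olfactory receptor gene Olfr90. Ribosomal protein genes, active in all cells, had PETs in 8 of 24 members at ZT10 (33.3%) and 2 at ZT22 (8.33%). The ZT10 share was near that of all genes.

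Under the loop rule, ZT10 PETs were more concentrated across the genome and ZT22 PETs more spread out. Each loop was placed in a 1-Mb window by its midpoint. ZT10 PETs lay in 1832 windows and ZT22 PETs in 1986, and 1510 windows held both. The leading 5% of windows held 26.3% of the ZT10 PETs (92 windows) and 13.6% of the ZT22 PETs (100 windows). The median filled window had 71 PETs at ZT10 and 6 at ZT22, and the leading shares were not compared at equal depth. The order of the window counts turned with the settings. ZT10 and ZT22 filled 1681 and 1195 windows with anchors of at least 1000 bp, and 1479 and 150 with loops of at least 5 PETs. Of the 100 leading windows at each time, 19 were shared, and the Spearman correlation between the counts over the 2308 windows was 0.22, given as a description, since all windows of a time share that library's depth.

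By chromosome, the log2 ratio of shares was 0.52 on chromosome 8, 0.50 on 11 and 0.48 on 19, and it was -0.48 on chromosome 2, -0.39 on 16 and -0.85 on X.

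Gene-poor windows carried relatively more at ZT22. Windows without a protein-coding gene held 1.09% of the ZT10 PETs and 8.47% of the ZT22 PETs, and windows with 5 to 14 genes held 51.3% and 41.3%. The 476 windows with ZT22 PETs alone held a median of 1 gene, against 7 in windows with ZT10 PETs, and they held 18.1% of the ZT22 PETs. Of the 1281 windows with at least 30 PETs over both times, 452 (35.3%) had a share at least 2-fold higher at ZT10 and 257 (20.1%) at ZT22. A window reaches this minimum mostly through ZT10. Among those compared, 174 had no kept PETs at ZT22 and pass toward ZT10 by the pseudocount of 0.5 PETs.

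The richest ZT10 window, chromosome 8 from 10 to 11 Mb, held 2150 PETs at ZT10 and 14 at ZT22, with Irs2 as its leading gene (370 PETs). The next, chromosome 8 from 126 to 127 Mb, held 1549 and 3. Irf2bp2 was its leading gene at ZT10 (281 PETs), and no gene was touched there at ZT22. A gene that names a window below need not hold most of its PETs. The windows of Fgg (1412 and 15), Zmiz1 (1362 and 7) and of Lpp and Bcl6 on chromosome 16 (1283 and 7) followed. At ZT22 the richest was chromosome 1 from 88 to 89 Mb, with 41 PETs against 1128 at ZT10, which holds the Ugt1a cluster and Mroh2a. Next came chromosome 1 from 155 to 156 Mb (34 at ZT22 and 355 at ZT10), where Qsox1 led at ZT10 (287 PETs) and Stx6 at ZT22 (7 PETs). The windows of Adgrv1 (32 and 361), the ubiquitin ligase gene Siah2 (32 and 195) and Ccnl1 with Kcnab1 (29 and 98, log2 ratio -2.41) followed. In the last of these, Ccnl1 led at ZT10 (57 PETs) and Kcnab1 at ZT22 (10 PETs). Among windows with the highest ZT22 share, chromosome 2 from 116 to 117 Mb had 18 PETs at ZT22 and 13 at ZT10. Meis2, its leading gene, held 3 PETs at each time. Chromosome 10 from 37 to 38 Mb, where no loop touched a gene, had 22 and 19. The windows at chromosome 4 from 3 to 4 Mb (19 and 15), chromosome 10 from 76 to 77 Mb (14 and 16) and chromosome 2 from 20 to 21 Mb around Arhgap21 (19 and 25) completed that group. Windows with many ZT10 PETs and none kept at ZT22 included those of Mical3 (766 PETs), Irs2 and Rab20 (626, in the window beside the richest), Hsf2bp and the salt-inducible kinase gene Sik1 (610), Klf3 (563) and Ppp1r3c (462).

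**Figure D5:**
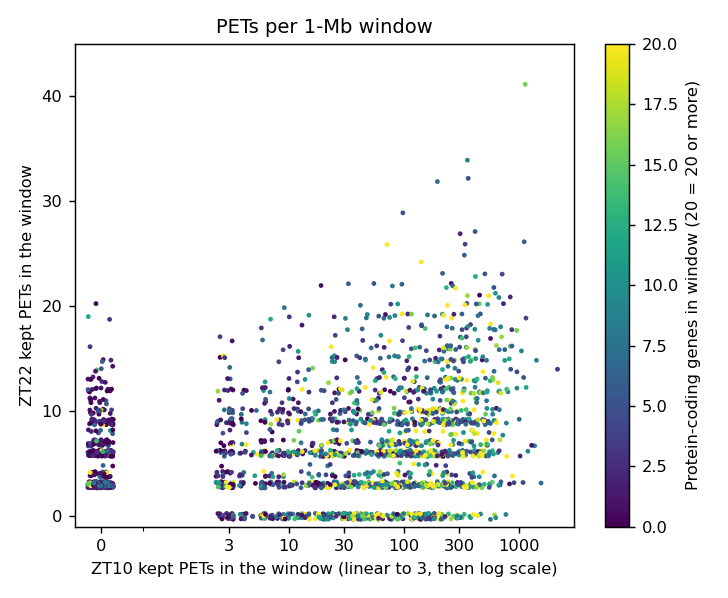
Kept PETs in each 1-Mb window at ZT10 (horizontal; linear to 3, then logarithmic) and at ZT22 (vertical), coloured by the number of protein-coding genes in the window. Points are shifted by up to 0.3 PETs to show overlaps. The highest ZT10 window has 2150 PETs and the highest ZT22 window 41.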

How the data were processed

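In-situ ChIA-PET loop lists of the anti-HA knock-in libraries at ZT10 and ZT22 (1 library each) were used, with the 4 AAV libraries as a reference. The authors deposited, per library, pairs of anchors with the raw count of PETs joining them, not normalized, on build mm10 (submitters' processing notes). Which aligner, duplicate filter and loop caller were used was not given in the sources used here. Animals per library are not named. The lowest deposited count was 3, so listed PETs are not the sequencing depth: 320427 nuclear PETs were listed at ZT10 and 132709 at ZT22, of which 267377 and 15060 were kept.

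Groups came from the sample titles, and 0 other per-sample columns were found. PETs were assigned to RefSeq GRCm38.p6 protein-coding genes (body plus 5 kb). Genes placed below 3 Mb of a chromosome other than Y, which were taken to lie on unplaced scaffolds, were left out. A loop counts for every gene it touches, so neighbours share PETs. Log2 ratios compare shares of kept PETs (pseudocount 0.5) in genes or 1-Mb windows with at least 30 PETs over both libraries, with 2-fold as the limit. Intervals are exact Poisson or binomial based and Wilson, at 95%. No test was made, and no replicate check exists. The loop rule and gene lists were chosen with earlier results of these data known.

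Named were the 10 leading genes by PETs at each time and by ratio each way, passing over genes that mostly share loops with one named, then clock members with PETs, the 2 leading members of other lists, and the leading 5 windows and loops. Other list members were named, and counts over loops of any width added, after values were seen. Some genes are not reported here. The calculation was tested on simulated data. Alternatives covered anchor width, span, PET minimum, gene definition, scale, pseudocount and window size. Python 3.11.15, numpy 2.4.6, pandas 2.3.3, scipy 1.17.1 and matplotlib 3.10.9 were used.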

Additional observations from a re-analysis of the deposited data

Results flagged for a closer look

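The mitochondrial genome, which was left out of every comparison, held 49244 listed PETs at ZT10 (13.3% of all listed PETs) and 7300 at ZT22 (5.21%). Chromosome 11 from 3.1 to 3.3 Mb, also left out, held 623 listed PETs at ZT10 (0.194% of nuclear PETs) and 1233 at ZT22 (0.929%). All 4 counts are above the listing minimum of 3 PETs, there are no control samples to set them against, and their source was not tested.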

How the results depend on the processing

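No paired analysis was possible because each time had 1 library, and the numbered AAV replicates entered no comparison. At every setting the ZT10 library kept more loops than the ZT22 library, and the cause of each shift below was not tested. With no limit on anchor width, the median span was 35.1 kb at ZT10 and 67.6 kb at ZT22, which turns their order. ZT22 then kept 24721 loops, 66.2% of its PETs were at genes and 402 genes were past 2-fold toward ZT22. With anchors of at least 1000 bp there were 26026 and 1715 loops (ZT10 and ZT22 throughout) and spans of 29.8 and 12.1 kb. Gene shares were then 78.1% and 62.5%, and 1681 and 1195 windows were filled, which turns the order of the window counts. With at least 5 PETs there were 15938 and 153 loops, spans of 27.2 and 11.8 kb and gene shares of 77.6% and 75.8%. The filled windows were then 1479 and 150, which also turns their order, and 115 genes were past 2-fold toward ZT10 against 720 toward ZT22. With exactly 3 PETs, an alternative chosen after seeing the data, ZT10 had 17362 loops and a span of 34.3 kb, and gene shares were 81.3% and 62.7%. Keeping the chromosome 11 region gave a ZT22 gene share of 66.3%. Gene bodies alone gave 72.9% and 58.3%. The 5 kb around gene ends gave 49.9% and 27.8% and 74 genes toward ZT22. Requiring both anchors gave 651 and 86 genes. Scaling by all listed PETs left 1 gene toward ZT22, scaling by the median gene gave 535 and 676, and a pseudocount of 3 gave 503 and 308. A minimum of 10 PETs gave 2315 genes toward ZT10 and 738 toward ZT22, and no minimum 2315 and 3430, which turns the split. Windows of 2 Mb numbered 1103 and 1191. Thinning ZT10 to the ZT22 total of listed PETs left an expected 13205 loops, with anchor widths left unchanged. Listed PETs are not the sequencing depth, and thinning could also narrow anchors. This value therefore cannot tell how many loops would be kept at equal depth.

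Of 859 log2 ratios of 62 named genes past 2-fold over 14 settings, 765 stayed past 2-fold on the same side, 57 fell within 2-fold and 37 turned. Those of genes with no kept loop at ZT22 (among them Cry1, Cry2, Ciart, Tdo2, Pecam1 and Sox9) rest on the pseudocount and are not folds. With at least 1000 bp Zbtb20 went to 1.90. With at least 5 PETs Cry2 went to -1.56, Tdo2 to -1.01, Ciart to -0.80, Vps13d to -0.63, Slc7a2 to -0.18, Cry1 to -1.49, Adra1b to -1.29, Pecam1 to -2.00 and Sox9 to -3.92. Gene bodies alone took Mstn to 1.40 and gene ends Snd1 to 0.24. Both anchors took Tdo2 to -0.45 and Itga1 to 1.40. All listed PETs took Mstn to 0.064, Pappa to 0.26, Ptprd to 1.27, Ppp2r3a to 0.44, Itga1 to 0.20, Zbtb20 to 0.87 and Dyrk1a to 0.38. The median gene took Npas2 to -1.14, Ugt1a10 to -0.54, Ugt1a1 to -0.58, Insig2 to -0.50, Tbl1xr1 to -0.48, Ddah1 to -0.38, Vps13d to -0.71, Itpr1 to -0.067, Slc7a2 to -0.96, Adra1b to -0.61, Pecam1 to -0.35, Sox9 to -0.35, Ppara to -0.15 and Arhgap26 to -0.054. A pseudocount of 3 took Pecam1 to -0.61 and Sox9 to -0.61.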
